A study of Bos taurus with 54 samples.

Results

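The genes of the heterogeneous nuclear ribonucleoproteins (hnRNPs), of the small nuclear ribonucleoprotein (snRNP) core and of the Sm-like LSM proteins were examined in blood of heat-stressed Holstein calves. Members were the genes whose symbol begins with HNRNP, with SNRP, or with LSM followed by a number, and 45 of the 32637 genes listed per library met this rule. The series holds 54 libraries from 29 RNA samples of 15 male calves kept in climate-controlled rooms, 27 prepared with the SMART-Seq v4 3′ DE kit of Takara and 27 with the QuantSeq 3′ kit of Lexogen, both of which sequence the 3′ end of polyadenylated RNA. Blood was drawn in the morning before heat exposure (thermoneutral control) and in the evening directly after 12 h of it (heat stress), and RNA came from the cell pellet left after lysis of red blood cells. Each kit has 13 control and 13 heat stress libraries, with both times for 12 animals, and all control samples are from the morning and all heat stress samples from the evening, so heat exposure and time of day cannot be told apart. The 2 libraries of animal 20 were left out because the sources disagree on their time.

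An hnRNP binds nascent and mature mRNA and acts in splicing, export, stability and translation. In the spliceosome, Sm proteins close a ring around U1, U2, U4 and U5 snRNA, whereas the ring of LSM2 to LSM8 binds U6 snRNA in the nucleus. LSM1 replaces LSM8 in a cytoplasmic ring that promotes decapping and decay of mRNA. Of the members, 20 encode hnRNP proteins (HNRNPA0, HNRNPA1, HNRNPA2B1, HNRNPA3, HNRNPAB, HNRNPC, HNRNPD, HNRNPDL, HNRNPF, HNRNPH1, HNRNPH2, HNRNPH3, HNRNPK, HNRNPL, HNRNPLL, HNRNPM, HNRNPR, HNRNPU, HNRNPUL1 and HNRNPUL2). A further 8 encode Sm ring proteins (SNRPB, SNRPD1, SNRPD2, SNRPD3, SNRPE, SNRPF, SNRPG and SNRPN, a tissue-restricted relative of SNRPB), and 4 encode proteins of the U1 snRNP (SNRPA, SNRPC) or U2 snRNP (SNRPA1, SNRPB2). The LSM rings take 8 members, LSM1 to LSM8. LSM10 and LSM11 belong to the U7 snRNP of histone mRNA processing, and LSM12, LSM14A and LSM14B form the remaining class, in which LSM14A and LSM14B are components of cytoplasmic mRNP granules.

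In Takara libraries, 9 members rose and 9 fell after heat stress, and 27 did not pass the test (adjusted p under 0.05, edgeR quasi-likelihood test with Benjamini-Hochberg adjustment over all 12620 genes tested). Each direction thus held 20% of the 45 members tested, beside 18.4% of all genes tested that rose and 10.5% that fell. The median log2 fold change was -0.15 over the members and -0.05 over all genes. With libraries scaled to their total count, which moved the median of all genes by -0.22, 2 members (HNRNPC and HNRNPLL) rose and 10 fell, beside 10.3% and 17.3% of all genes, and with animal 20 counted as a control 0 passed. Members took 0.585% to 0.836% (median 0.758%) of the gene counts in Takara control and 0.428% to 0.857% (median 0.587%) in Takara heat stress libraries. Of the hnRNP genes 7 rose and 4 fell. Of the 16 Sm and LSM ring genes 1 rose and 4 fell, and 14 had a negative log2 fold change. The 4 U1 and U2 genes all had negative log2 fold changes, from -0.39 to -0.09, and 0 passed the test, with 1 (SNRPA) at an unadjusted p under 0.05 and 0 called by DESeq2 on the same genes. In the classes with fewer genes, LSM14A rose and LSM11 fell.

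**Figure D1:**
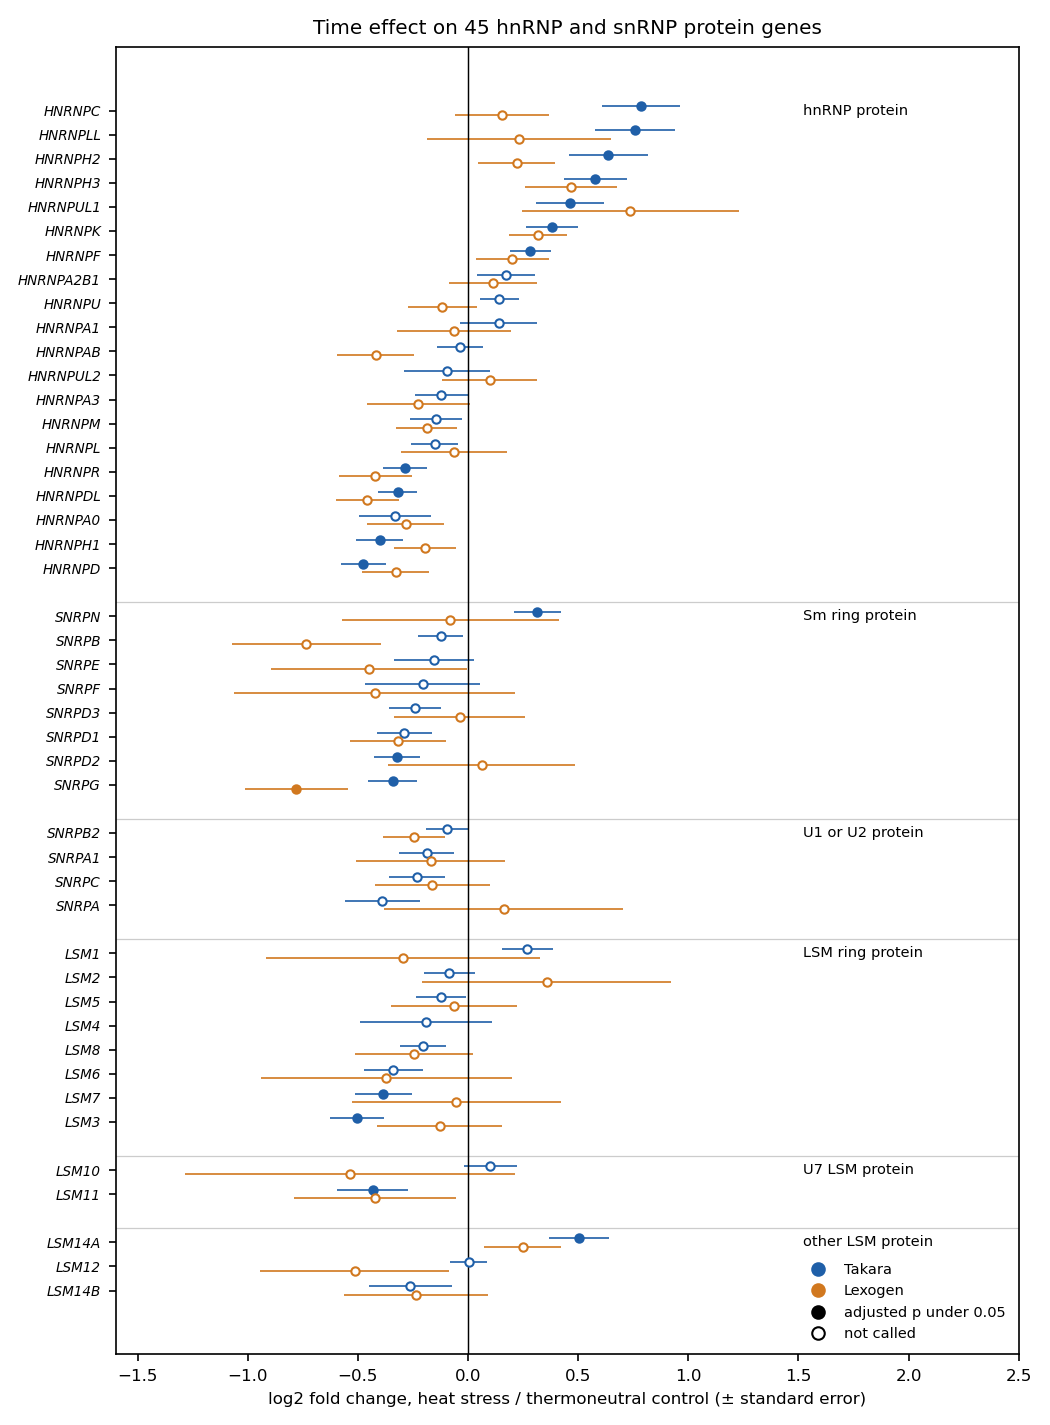
Log2 fold change of each of the 45 members between heat stress and thermoneutral control (x axis, points, with the standard error as bars), by class and kit. Filled points passed an adjusted p of 0.05. In Takara 9 filled points lie on each side of 0, and in Lexogen the single filled point is SNRPG at -0.78.

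HNRNPC, which packages nascent transcripts and represses inclusion of cryptic exons, had the largest positive change of the members that passed in Takara. Its gene lies on chromosome 10 at 25880966 to 25925728 (ARS-UCD2.0, as for all positions here). Control libraries held 65.1 to 109 CPM (the count of a gene scaled to a common library total), with a median of 89.2, and heat stress libraries held 93.8 to 308 CPM, with a median of 125. Of the 13 heat stress libraries 8 exceeded every control library, the remaining ones lay within the control range, and the library of animal 18 was the highest. HNRNPC was higher after heat stress in 11 of 12 animals, and its log2 fold change was 0.78 ± 0.18 (SE, n = 13 per group, adjusted p = 0.002 from edgeR). In Lexogen libraries it ranged from 24.4 to 97.5 CPM in control and from 22.8 to 79.6 CPM after heat stress, and the change of 0.15 ± 0.21 (SE) did not pass the test.

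HNRNPLL, a regulator of exon choice in CD45 (PTPRC) transcripts of lymphocytes, lies on chromosome 11 at 20909750 to 20948016. It had 9.01 to 16.8 CPM in Takara control libraries (median 13.4) and 9.60 to 40.03 CPM after heat stress (median 19.4). Of the heat stress libraries 8 of 13 lay above every control and the others overlapped them, with animal 41 lowest. The log2 fold change was 0.76 ± 0.18 (SE, adjusted p = 0.00323, edgeR), in the same direction in 11 of 12 animals.

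HNRNPH2, on chromosome X at 50797754 to 50803596, encodes a binder of G-rich splicing elements. Its Takara levels were 27.5 to 63.4 CPM in control (median 45.2) and 40.1 to 142 CPM after heat stress (median 58.0), and 6 of 13 heat stress libraries lay above every control. The change of 0.64 ± 0.18 (SE, adjusted p = 0.00899, edgeR) was shared by only 7 of 12 animals. Its close relatives moved in both directions. On the log2 scale, HNRNPH3 rose by 0.58 ± 0.14 (SE, adjusted p = 0.00396) and HNRNPF by 0.28 ± 0.09 (SE, adjusted p = 0.0261), whereas HNRNPH1 fell by 0.40 (SE 0.11, adjusted p = 0.00639). HNRNPK, a KH-domain protein that binds C-rich RNA, and HNRNPUL1, a relative of the scaffold protein HNRNPU, complete the hnRNP genes that rose, with log2 fold changes of 0.38 ± 0.12 (SE, adjusted p = 0.0161) and 0.46 ± 0.15 (SE, adjusted p = 0.0256). With libraries scaled to their total count, the calls of HNRNPH2, HNRNPH3, HNRNPF, HNRNPK and HNRNPUL1 were lost.

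HNRNPD, also known as AUF1, binds AU-rich elements of short-lived mRNA and had the smallest adjusted p of all members. It lies on chromosome 6 at 97143330 to 97160516. Control libraries held 304 to 388 CPM (median 341) and heat stress libraries 164 to 361 CPM (median 253). Nearly the whole heat stress group, 11 of 13 libraries, lay below every control, and animal 18 was the lowest. HNRNPD fell by 0.47 on the log2 scale (SE 0.10, adjusted p = 0.00154, edgeR), with 10 of 12 animals lower. In Lexogen its range was 201 to 368 CPM in control and 96.5 to 311 CPM after heat stress, with 7 of 13 libraries below every control, and the log2 fold change of -0.33 ± 0.15 (SE) had an adjusted p of 0.247. Its paralogue HNRNPDL fell by 0.32 in Takara (SE 0.09, adjusted p = 0.00901) and had a log2 fold change of -0.46 ± 0.14 (SE) in Lexogen, at an adjusted p of 0.0518. HNRNPR, the remaining hnRNP gene that fell, did so by 0.28 (SE 0.10, adjusted p = 0.0327). With the animal as a block over the 12 animals sampled at both times, the calls of HNRNPR (adjusted p = 0.0678), HNRNPUL1 (adjusted p = 0.0704) and HNRNPF (adjusted p = 0.0806) were lost. In the same animals without the block HNRNPR was not called either (adjusted p = 0.0769), while HNRNPUL1 (adjusted p = 0.0347) and HNRNPF (adjusted p = 0.0442) were.

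The hnRNP genes that passed no test of time were HNRNPA0, HNRNPA1, HNRNPA2B1, HNRNPA3, HNRNPAB, HNRNPL, HNRNPM, HNRNPU and HNRNPUL2. HNRNPA2B1, a reader of RNA sorting signals, had heat stress libraries from 271 to 729 CPM around a median of 340 CPM, beside a control median of 326 CPM, and a log2 fold change of 0.17 ± 0.13 (SE).

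**Figure D2:**
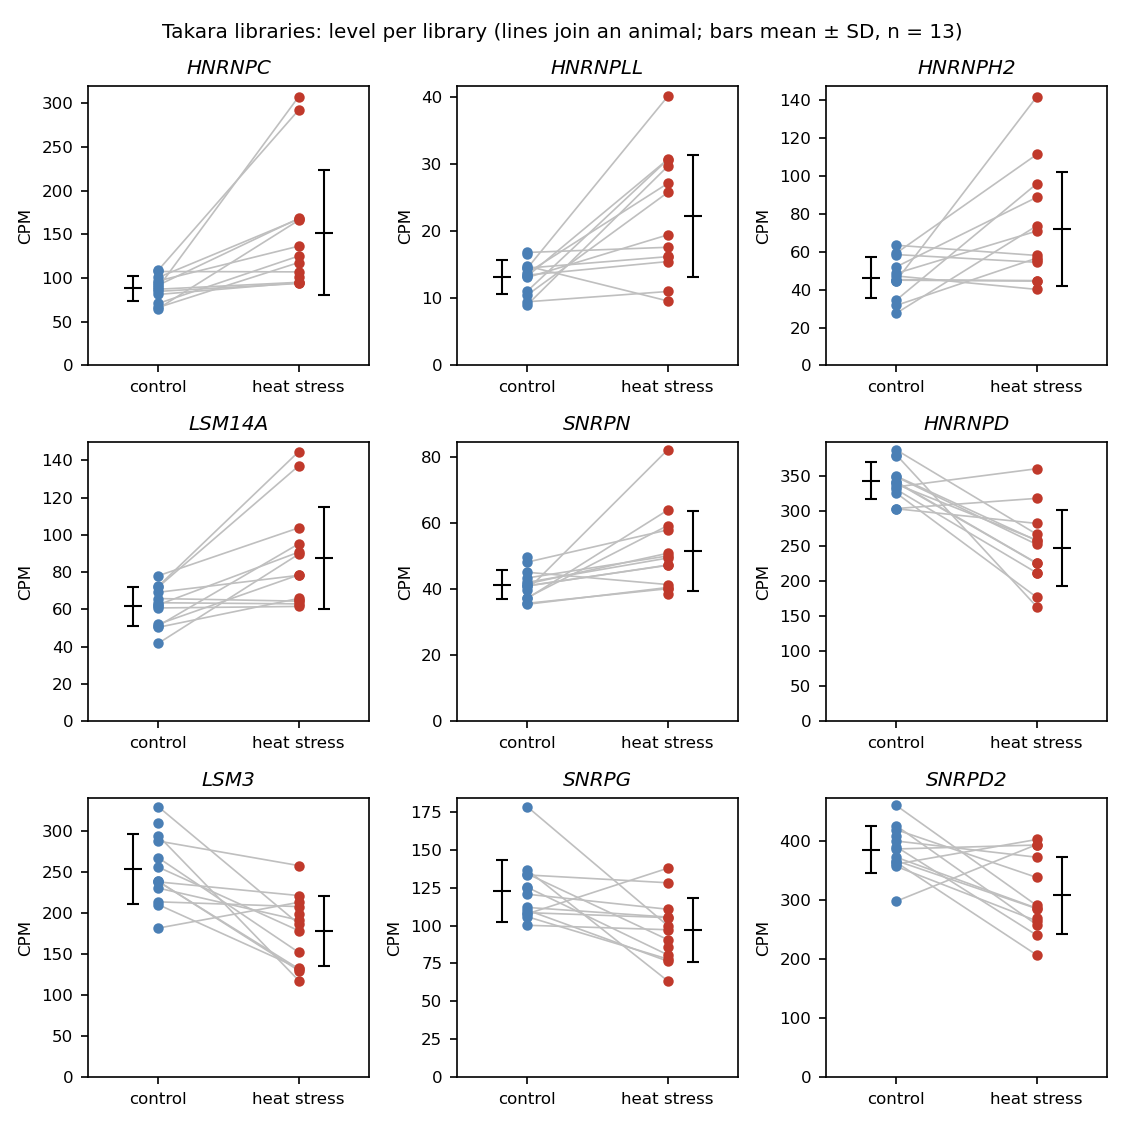
CPM per Takara library (y axis, from 0) of 9 members at both times, with lines joining the libraries of an animal and bars giving mean ± SD of 13 libraries. HNRNPC, HNRNPLL, HNRNPH2, LSM14A and SNRPN spread upward after heat stress, and HNRNPD, LSM3, SNRPG and SNRPD2 shift downward, with overlap between the times in every panel.

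Among the Sm ring genes, SNRPG and SNRPD2 fell in Takara and SNRPN rose. SNRPG, a core Sm protein encoded on chromosome 11 at 68602486 to 68611488, was the only member called in both kits. Takara control libraries held 100.2 to 178 CPM (median 121) and heat stress libraries 63.5 to 138 CPM (median 97.2). The 8 lowest of 13 heat stress libraries lay below every control, and the rest overlapped. Its log2 fold change in Takara was -0.34 ± 0.11 (SE, adjusted p = 0.0233, edgeR), with 11 of 12 animals lower. With the animal as a block, the adjusted p was 0.0576 and the call was lost, beside 0.0486 in the same animals without the block. Lexogen libraries of SNRPG held 43.2 to 138 CPM in control (median 106) and 10.8 to 115.1 CPM after heat stress (median 59.1), and 4 of 13 heat stress libraries lay below every control. The Lexogen change was -0.78 ± 0.23 (SE, adjusted p = 0.041, edgeR), again lower in 11 of 12 animals, and its adjusted p was 0.136 with the animal as a block and 0.0495 in the same animals without it.

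SNRPD2, which pairs with SNRPD1 in the Sm ring, lies on chromosome 18 at 53253428 to 53256287. Its Takara levels were 297 to 459 CPM in control (median 386) and 207 to 402 CPM after heat stress (median 286). Below every control were 8 of 13 heat stress libraries, and animal 32 reached the top of the heat stress range. SNRPD2 fell by 0.32 on the log2 scale (SE 0.10, adjusted p = 0.0219, edgeR), and the call was lost in the 12 animals sampled at both times, with the animal as a block (adjusted p = 0.0653) and without it (adjusted p = 0.0508). In Lexogen its median was 42.98 CPM in control and 43.02 CPM after heat stress (log2 fold change 0.06 ± 0.43, SE).

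SNRPN, on chromosome 21 at 1937668 to 1961040, overlaps SNURF in the annotation, and a read assigned to both genes would be counted for neither. It had 35.5 to 49.9 CPM in Takara control libraries (median 41.1) and 38.5 to 82.3 CPM after heat stress (median 49.5), with 6 of 13 heat stress libraries above every control and animal 7 the highest. The log2 fold change was 0.31 ± 0.11 (SE, adjusted p = 0.0266, edgeR), and 11 of 12 animals were higher. In CPM scaled to the total count, its Takara median was 46.7 in control and 46.1 after heat stress, and with this scaling the call was lost. SNRPB, SNRPD1, SNRPD3, SNRPE and SNRPF did not pass in Takara, with log2 fold changes from -0.29 (SNRPD1) to -0.12 (SNRPB).

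LSM3, a subunit shared by the nuclear and the cytoplasmic LSM ring, had the largest negative change of the members that passed in Takara. It lies on chromosome 22 at 58031641 to 58040013. Control libraries held 182 to 330 CPM (median 239) and heat stress libraries 118.2 to 258 CPM (median 187). The times overlapped in 7 of 13 heat stress libraries, and the other 6 lay below every control. LSM3 fell by 0.51 on the log2 scale (SE 0.12, adjusted p = 0.00352, edgeR), in 11 of 12 animals. LSM7, which sits in the same rings, fell by 0.39 (SE 0.13, adjusted p = 0.0262). In Lexogen the log2 fold changes were -0.13 ± 0.29 (SE) for LSM3 and -0.05 ± 0.47 (SE) for LSM7, and neither passed the test.

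LSM1, the subunit particular to the cytoplasmic ring, was the only LSM ring gene with a positive log2 fold change in Takara, at 0.27 ± 0.12 (SE, adjusted p = 0.0792), and LSM8, its nuclear counterpart, had -0.21 ± 0.10 (SE, adjusted p = 0.136). Neither passed the test. LSM6 did not pass either (-0.34 ± 0.13, SE, adjusted p = 0.0569), and it was called with the animal as a block (adjusted p = 0.0372) and with total count scaling (adjusted p = 0.0435).

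LSM14A, a translational repressor found in processing bodies, lies on chromosome 18 at 44607775 to 44661690. Its Takara levels were 41.9 to 78.1 CPM in control (median 62.5) and 61.6 to 145 CPM after heat stress (median 78.5). In the heat stress group 8 of 13 libraries lay above every control, and the others within the control range. The log2 fold change was 0.50 ± 0.14 (SE, adjusted p = 0.00757, edgeR), and 10 of 12 animals were higher. With libraries scaled to their total count, the call was lost. LSM14B and LSM12 did not pass, at -0.26 ± 0.19 and 0.00 ± 0.08 (SE).

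LSM11, on chromosome 7 at 69328937 to 69743549, was counted at 7.53 to 14.6 CPM in Takara control libraries (median 10.7) and at 3.14 to 12.6 CPM after heat stress (median 8.25). With 5 of 13 heat stress libraries below every control, it fell by 0.43 on the log2 scale (SE 0.16, adjusted p = 0.0439, edgeR). Its annotated span overlaps CLINT1 and 2 other genes, and only 17.3% of its Takara counts in the 2 stranded columns together were on the sense strand. The sense count was 70.5% of the unstranded Takara count used in the test. With sense counts its adjusted p was 0.083 and the call was lost.

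In unstranded counting, reads over genes that overlap on opposite strands are ambiguous and are counted for neither, and 4 other members lie in such an overlap with a far larger sense count. The sense column held 32.6 times the unstranded Takara count of LSM4, which overlaps LOC101902444. The corresponding ratio was 9.85 for SNRPF (overlapping CCDC38), 5.61 for HNRNPA1 (overlapping NFE2) and 4.94 for HNRNPUL1 (overlapping TGFB1 and LOC132342854). In Lexogen these ratios were 12.7, 5.51, 6.28 and 16.1. LSM4 was counted at only 1.05 to 6.75 CPM in unstranded Takara libraries and did not enter the Lexogen test. In sense counts of Takara libraries it held 98.6 to 164 CPM in control (median 132) and 59.9 to 126 CPM after heat stress (median 88.7). The sense levels of 7 of 13 heat stress libraries lay below every control, and LSM4 fell by 0.52 on the log2 scale (SE 0.12, adjusted p = 0.00312, edgeR), with 10 of 12 animals lower. HNRNPUL1 rose in sense counts as well (0.37 ± 0.11, SE, adjusted p = 0.00967), whereas HNRNPA1 (-0.16 ± 0.09, SE) and SNRPF (-0.27 ± 0.12, SE) did not pass with either column. Over all members, sense counts gave 9 that rose and 9 that fell in Takara, beside 18.3% and 11.1% of genes, with LSM4 in place of LSM11.

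In Lexogen libraries 0 of 44 members rose and 1 (SNRPG) fell, beside 5.09% and 0.459% of the 11108 genes tested. DESeq2 on the same genes called 0 and 2, beside 7.57% and 1.27% of genes. An unadjusted p under 0.05 in edgeR was found for 8 of 44 members (18.2%), beside 16.9% of genes. The median standard error of a member's log2 fold change was 0.26 in Lexogen and 0.12 in Takara. Of the 18 members called in Takara, 16 had a log2 fold change of the same sign in Lexogen, and the exceptions were SNRPN (-0.08 ± 0.49, SE) and SNRPD2. Both kits were used on the same animals, so this is not independent support. The difference between the kits in the time effect was tested in the 24 RNA samples sequenced with both. The adjusted p was under 0.05 for 0 of 45 members and 0 of 13354 genes (0%), and 526 genes had an unadjusted p under 0.05. HNRNPAB was the single member with an unadjusted p under 0.05 (difference of Takara minus Lexogen 0.40 ± 0.17, SE, p = 0.0288 in edgeR).

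Markers of blood cell types moved with time in the same libraries. Of the neutrophil markers tested, 9 of 11 rose in Takara and 6 of 10 in Lexogen, and their summed level was 4958 to 21770 CPM (median 13124) in Takara control and 4797 to 113204 CPM (median 43912) in Takara heat stress libraries. Of 10 T cell markers 5 fell in Takara, with sums of 1192 to 2396 CPM in control and 802 to 1830 CPM after heat stress. Of the other markers tested in Takara, 1 of 8 B cell markers fell, 3 of 6 monocyte and 1 of 6 NK and cytotoxic markers rose, and 0 of 2 erythroid, 0 of 4 platelet and 0 of 8 cycling cell markers passed. In Lexogen 0 of 9 T cell, 0 of 8 B cell and 0 of 6 monocyte markers passed. There 1 of 5 NK and cytotoxic markers rose, and 0 of 2 erythroid, 0 of 4 platelet and 0 of 8 cycling cell markers passed. Over all genes tested, 18.4% rose and 10.5% fell in Takara, and 5.09% and 0.459% in Lexogen. HBA1 and CA1 were at 0 in every library. In these bulk samples fewer cells of a type and less RNA per cell cannot be told apart, and the part of these markers in the members' changes was not tested.

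The number of called members whose Takara change had the sign of their group ranged from 10 to 18 between animals. The 18 were called from these same libraries, so a shared sign is not independent support. The same share over all called genes was not counted. In animals 7, 15, 16, 36 and 40 all 18 had it, and in animal 18 all but HNRNPK. The log2 change of the neutrophil gene S100A8 in these animals was 2.77, 3.22, 3.16, 4.70, 3.10 and 3.59, in the order named. The other animals had fewer, with 16 of 18 in animal 32, 14 in animal 19, 13 in animal 12, 11 in animal 3 and 10 in animals 14 and 41. The S100A8 change was 1.46 in animal 32, -0.02 in animal 19, 0.07 in animal 12, -1.15 in animal 3, 0.15 in animal 14 and -0.61 in animal 41. The relation of S100A8 to these numbers was not tested. HNRNPDL had its most negative changes in animals 14 (-0.72) and 32 (-0.68), and a change of -0.03 in animal 18.

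**Figure D3:**
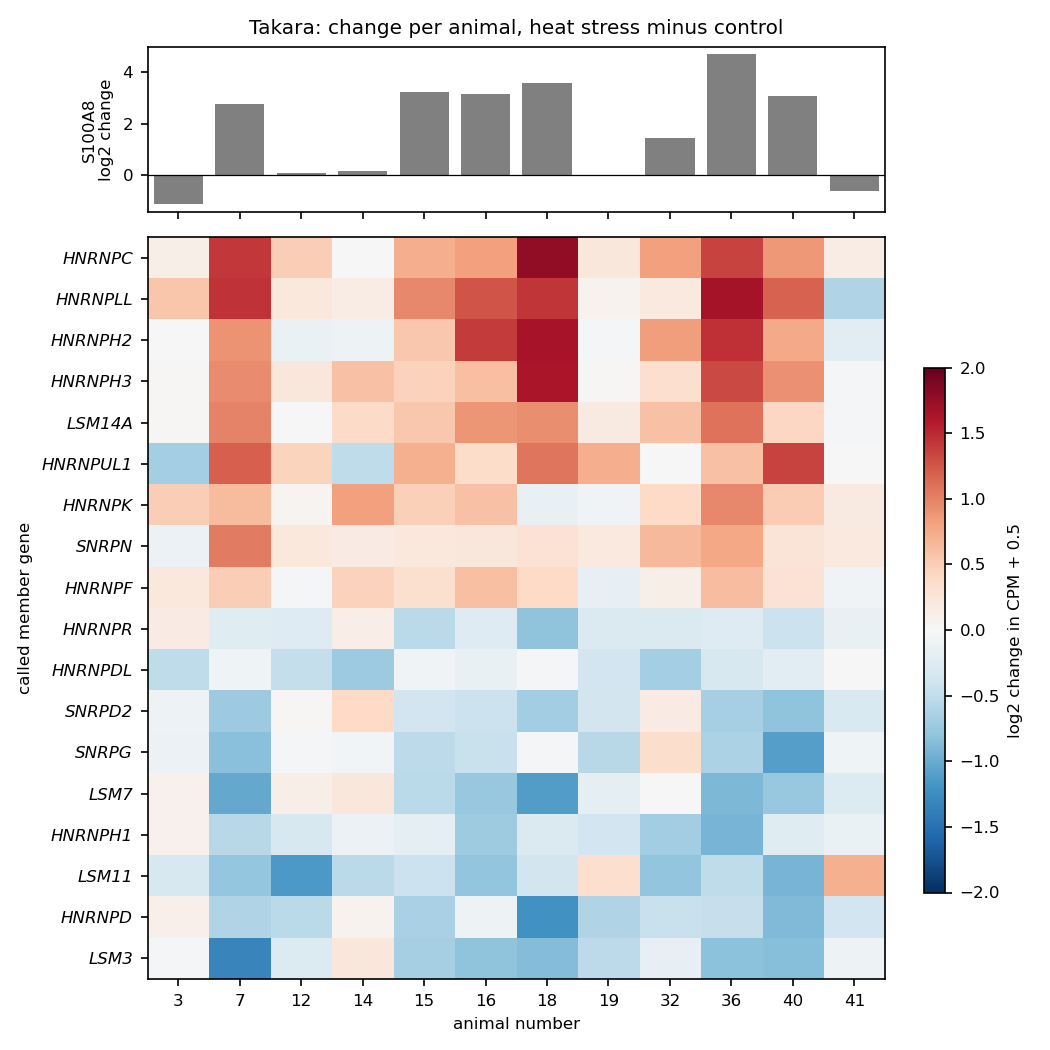
Change per animal in Takara (heat stress minus control, log2 of CPM + 0.5) for the 18 called members (colour, rows) and for S100A8 (bars above, log2 change), over the 12 animals with both times. Red and blue rows are most even in animals 7, 15, 16, 36 and 40, where all 18 members have the sign of their group. They are most mixed in animal 3 (11 of 18) and in animals 14 and 41 (10 of 18 each).

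The sample numbers fall into 2 runs with a wide gap (8 and 7 animals), which may be a batch. All 18 called members kept their direction in both runs in Takara, and 8 of them were called within run 1 and 3 within run 2. The 18 were called over both runs together, so keeping their direction within each run is not independent support. Over all members 9 were called in run 1 and 3 in run 2, beside 20.6% and 7.35% of the genes tested. The log2 fold changes within runs 1 and 2 were 0.71 ± 0.22 and 0.87 ± 0.27 (SE) for HNRNPC, -0.73 ± 0.14 and -0.19 ± 0.15 for HNRNPD, and -0.55 ± 0.16 and -0.44 ± 0.21 for LSM3. The interaction of run and time passed for 1 of 45 members in Takara, beside 2.58% of 12620 genes, and for 0 of 44 in Lexogen, beside 0.018% of genes (edgeR). The exception was HNRNPUL2, a nuclear DNA- and RNA-binding relative of HNRNPU on chromosome 29 at 41032884 to 41042489. In run 1 its Takara level was 12.4 to 18.6 CPM in control (median 17.4) and 13.4 to 33.5 CPM after heat stress (median 23.9). In run 2 it was 20.2 to 43.9 CPM in control (median 32.1) and 15.3 to 22.7 CPM after heat stress (median 19.8). Every run 2 control library thus lay above every run 1 control library, while the heat stress ranges of the runs overlapped. The log2 fold change was 0.54 ± 0.19 (SE) in run 1 and -0.67 ± 0.23 (SE) in run 2, neither of which passed alone, and their difference in the joint fit was -1.26 ± 0.30 (SE, adjusted p = 0.0204). In Lexogen the difference was -0.08 ± 0.45 (SE, adjusted p = 0.986). The share of reads that mapped but matched no annotated gene feature differed in the same Takara libraries. It was 12.9% to 15.0% in run 1 controls and 13.9% to 19.2% in run 2 controls, and its part in the HNRNPUL2 values was not tested.

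**Figure D4:**
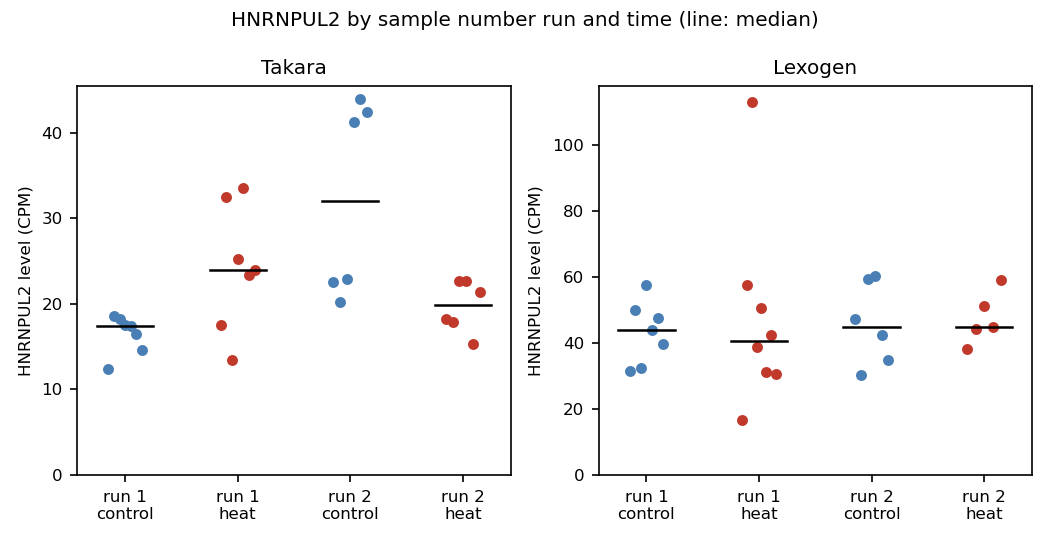
HNRNPUL2 level (CPM, y axis from 0) per library by run and time in each kit, with lines at the medians. In Takara the run 2 controls (20.2 to 43.9 CPM) lie above the run 1 controls (12.4 to 18.6 CPM), and in Lexogen the 4 groups overlap.

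The study compared the kits on the same RNA. In the 24 RNA samples with both kits, 25 members were higher and 15 lower in Takara, beside 44.5% and 27.8% of 12447 genes tested (edgeR, RNA sample as block). The median log2 difference, Takara minus Lexogen, was 0.39 over the members and 0.41 over all genes. Of the LSM ring genes 7 of 8 were higher in Takara, with a median of 2.87, led by LSM6 at 3.94 ± 0.34 (SE), LSM4 at 3.38 ± 0.77 and LSM1 at 3.14 ± 0.35. LSM8 was the exception, at -0.63 ± 0.15 (SE). Of the 8 Sm ring genes 6 were higher and 0 lower, and SNRPD2 differed most, by 2.99 ± 0.27 (SE). Against the median of all genes, 4 Sm ring genes lay above it and 4 below. The U1 and U2 genes SNRPA, SNRPC and SNRPA1 were higher, SNRPA by 1.77 ± 0.30 and SNRPA1 by 1.53 ± 0.18 (SE), and SNRPB2 was lower. The hnRNP genes divided into 7 higher and 10 lower, with a median of -0.08, and HNRNPA3 (-1.86 ± 0.17, SE) and HNRNPDL (-1.47 ± 0.07, SE) were lowest. LSM14B was lower by the widest margin of all members, at -2.81 ± 0.23 (SE).

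**Figure D5:**
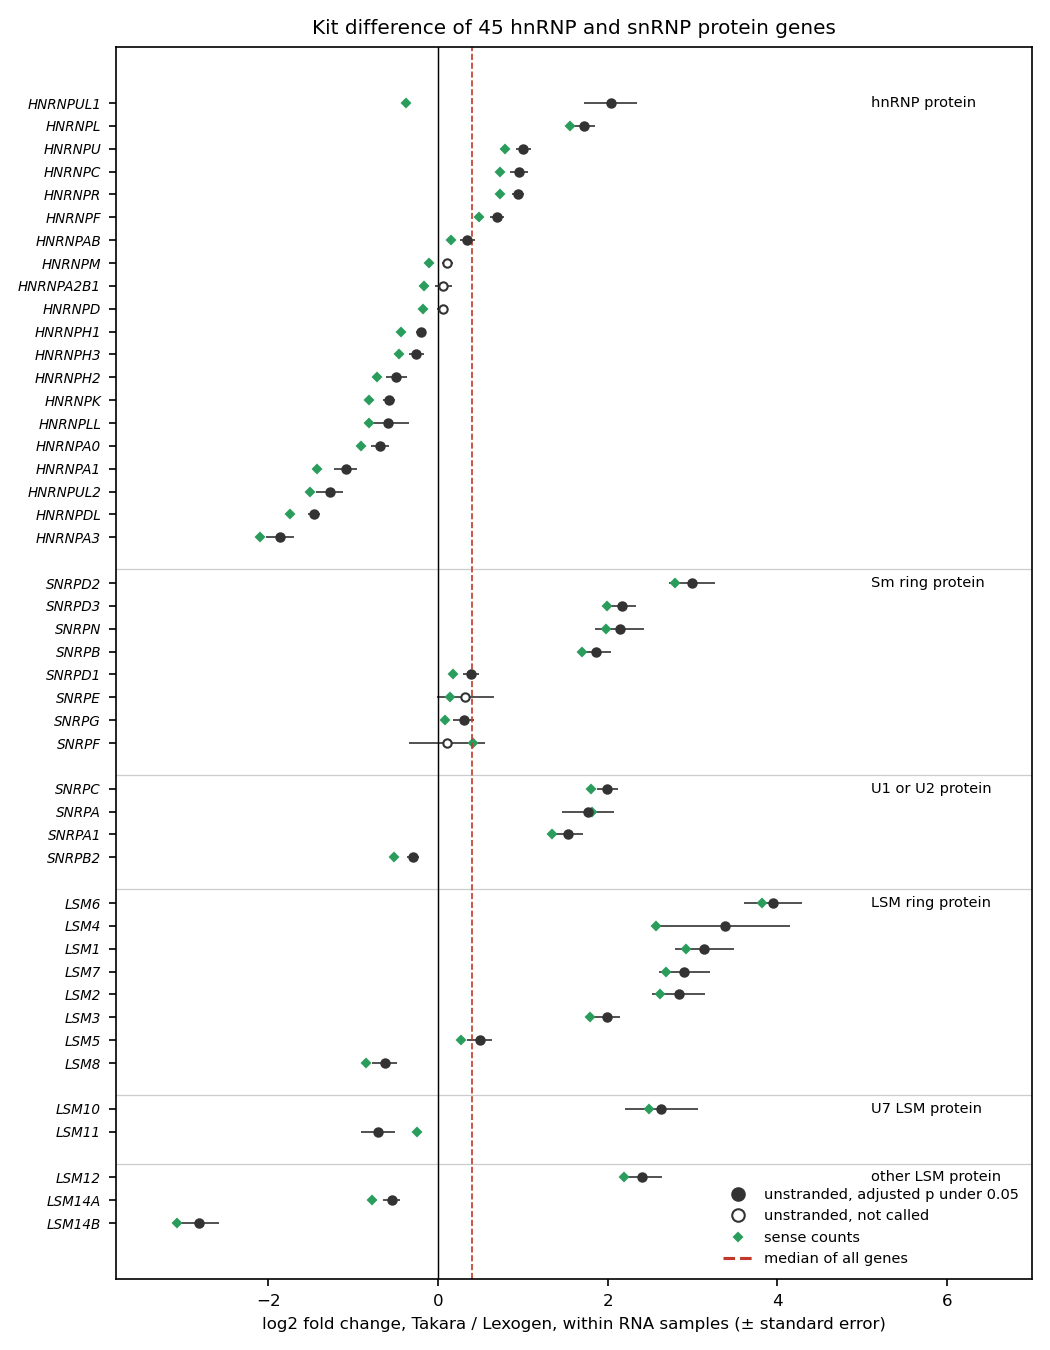
Log2 difference between the kits within RNA samples (x axis, Takara over Lexogen, circles with standard error) for each member by class, with the sense counts as diamonds and the median of all genes (0.41) as a dashed line. Of the LSM ring genes 7 of 8 lie right of the dashed line, and of the Sm ring genes 4 of 8 do. The hnRNP genes lie on both sides of 0, and HNRNPUL1 changes side with sense counts.

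Sense counts gave 21 members higher and 16 lower in Takara, beside 40.6% and 32.3% of genes. HNRNPUL1, one of the members whose unstranded count is small beside its sense count, moved from 2.03 to -0.37 between the columns. LSM4, another such member, moved from 3.38 to 2.57, below LSM1 at 2.92, LSM7 at 2.68 and LSM2 at 2.61. The LSM ring genes had a median of 2.59 with 6 of 8 higher, the Sm ring genes had 5 higher and 0 lower, and the hnRNP genes had 5 higher and 12 lower.

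Other genes of the same pathways were taken as lists. Of 33 other snRNP proteins tested in Takara, 2 rose (6.06%) and 3 fell (9.09%), beside 18.4% and 10.5% of all genes tested. SF3B1, the U2 subunit that contacts the branch site, rose by 0.63 ± 0.16 (SE, adjusted p = 0.0046), as did RNPC3 of the minor spliceosome (0.50 ± 0.19, SE, adjusted p = 0.0475), whereas PPIH of the U4/U6 particle fell by 0.45 (SE 0.13, adjusted p = 0.00907) and SF3B5 fell by 0.43 (SE 0.12, adjusted p = 0.00893). The proteins that assemble and transport snRNPs gave 0 that rose and 3 that fell (16.7%) among 18 tested, with GEMIN2 of the SMN complex at -0.47 ± 0.16 (SE, adjusted p = 0.0293) and the cap hypermethylase TGS1 at -0.29 ± 0.11 (SE, adjusted p = 0.0458). Their median log2 fold change was -0.17, beside -0.05 over all genes. Among 22 other hnRNP-type RNA-binding proteins 2 rose (9.09%), PTBP3 (0.65 ± 0.18, SE, adjusted p = 0.00953) and RALY (0.47 ± 0.14, SE, adjusted p = 0.0125), and 3 fell (13.6%). Of the 9 decapping and decay partners of the cytoplasmic LSM ring, DCP1A rose by 0.32 ± 0.12 (SE, adjusted p = 0.0402) and DCP1B fell by 0.56 (SE 0.19, adjusted p = 0.0293). That is 11.1% of the list in each direction. In Lexogen 0 genes of these lists rose and 1 fell, beside 5.09% and 0.459% of all genes tested. The gene that fell was the paraspeckle protein gene NONO (by 1.01 on the log2 scale, SE 0.27, adjusted p = 0.0193), which was named after its value was seen.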

How the data were processed

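The authors used Trimmomatic (v.0.39) to trim forward reads and STAR (v.2.7.10b) to map them to ARS-UCD2.0. The deposited values are raw gene counts of uniquely mapped reads, not normalized, with 1 unstranded column and 1 column for each strand. The unstranded counts were used as the rule asks, with sense counts as an alternative. The column analysed in the study is not given in the sources used here. Counts on genes were 5140595 to 20699030 per Takara and 4516761 to 58521751 per Lexogen library. Reads carry no molecular identifiers.

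Genes were filtered with filterByExpr, normalized with TMM and tested with the quasi-likelihood test of edgeR (v.4.0.16) on the whole table, with time alone as the term, in R (v.4.3.3). Benjamini-Hochberg adjustment covered all genes tested. Standard errors came from the fitted coefficient and its test. CPM use TMM library sizes, and changes per animal use log2(CPM + 0.5). Libraries are separate calves within a group. Animal numbers pair the times because they name the same calf: for 11 of 12 calves in Takara, and for 2 of 12 in Lexogen, the correlation of centred levels exceeded 0.1. The block was an alternative, since the study modelled time alone. The smallest chi-square per degree of freedom between libraries of a group was 16.0, so none was counted as a duplicate. DESeq2 (v.1.42.0) was an alternative. The steps were tested on simulated data.

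Full values were given for members called in both kits, for the smallest adjusted p per class and direction, for members called in an interaction, and for the 3 largest changes in each direction in Takara. Relatives and overlapping genes beyond this rule were added after their values were seen. In each pathway list the 2 smallest adjusted p per direction were named. Of the hnRNP-type list, the genes that fell are not reported here by name for Takara. Members and lists were chosen with earlier results of these data known. Positions came from RefSeq (ARS-UCD2.0), in which all 45 members were found. Sequences were not used here.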

Additional observations from a re-analysis of the deposited data

Results flagged for a closer look

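One member differed between the sample number runs by the test of the difference itself. The time effect on HNRNPUL2 in Takara was -1.26 ± 0.30 on the log2 scale (SE, adjusted p = 0.0204, edgeR) in run 2 relative to run 1. It kept this call with RLE size factors (-1.28, adjusted p = 0.0196) and with sense counts (-1.29, adjusted p = 0.0179, an alternative chosen after seeing the data), and lost it with all expressed genes in the test (-1.18, adjusted p = 0.0558). Among the 45 members tested, HNRNPUL2 alone passed, beside 2.58% of the 12620 genes tested.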

How the results depend on the processing

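None of the 18 members called in Takara changed sign under the 14 alternatives run, which largely reuse the libraries that gave the calls. Scaling to the total count moved the median of all genes by -0.22, and 2 members then rose (HNRNPC and HNRNPLL) and 10 fell, beside 1303 genes that rose and 2185 that fell. With animal 20 as thermoneutral control 0 members rose and 0 fell in either kit (0 genes in Takara by edgeR, 3804 at an unadjusted p under 0.05). Run 1 alone gave 2 that rose and 7 that fell in Takara, beside 1879 and 751 of 12791 genes. Run 2 alone gave 2 that rose and 1 that fell, beside 608 and 323 of 12661 genes. Fewer libraries entered these fits. The run interaction in Takara was called for 0 members without a filter, beside 23 positive and 123 negative calls among 24553 genes. With the animal as a replicate block, in the 12 animals with both times, HNRNPR, SNRPG, HNRNPUL1, SNRPD2 and HNRNPF lost their call in Takara. In that fit 7 members rose and 7 fell, beside 1881 and 1281 of 12651 genes. HNRNPR, SNRPD2 and LSM11 lost it in the same animals without the block, an alternative chosen after seeing the data. There 10 members rose and 6 fell, beside 2136 and 1001 of 12651 genes. In Lexogen the block left 0 members called, with 46 genes that rose and 17 that fell, beside 1 member, 407 and 47 genes in the same animals without it. LSM11 lost its call under 8 alternatives. Members that fell in Lexogen numbered 2 (SNRPG and HNRNPDL) with DESeq2 on the same or all expressed genes, RLE size factors, no filter, sense counts or animal 20 as heat stress, and 0 with animal 20 as control or within run 1 or run 2. All genes that fell numbered 141 of 11108 and 190 of 21596 with DESeq2, and 56 of 11108 with RLE size factors. They numbered 1572 of 21596 with no filter, 60 of 10882 with sense counts and 92 of 11222 with animal 20 as heat stress. With animal 20 as control 0 of 11222 genes fell, within run 1 it was 23 of 11532, and within run 2 it was 0 of 11459. With the total count, HNRNPDL passed in place of SNRPG (adjusted p = 0.0579). The Takara library of animal 18 after heat stress had the highest Takara share of reads matching no annotated gene feature (25.7%). Without this library, an alternative chosen after seeing the data, HNRNPR, LSM11 and HNRNPF lost their call. The highest count was that of animal 15 after heat stress in Lexogen, and SNRPG was called without it (adjusted p = 0.0373). The cause of these shifts was not tested. Members counted at a few CPM, as SNRPF and LSM4 were in the unstranded column, had standard errors of 0.26 and 0.30 in Takara, beside 0.12 for both in the sense column.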

Other observations

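The 2 libraries of animal 20, which entered no comparison, are given as values, in CPM scaled to the total count. In Takara all 9 members that fell in the other animals lay below every control library in animal 20, and 5 of the 9 that rose lay above every control. How many of all genes lay outside the control range was not counted in either kit, so these counts are not a result about the members. In the other animals, scaling to the total count moved the Takara median of all genes by -0.22. The members together took 0.518% of the gene counts in the Takara library of animal 20, beside 0.585% to 0.836% in control. HNRNPD held 116.4 CPM in this library, beside 300.3 to 445 CPM in the 13 control and 118.9 to 435 CPM in the 13 heat stress libraries, and SNRPG held 47.6 CPM, beside 112 to 179 CPM and 44.1 to 150.1 CPM. HNRNPC held 154 CPM, beside 63.2 to 114.4 CPM in control and 98.9 to 225 CPM after heat stress. In Lexogen 5 of the 9 members that fell in Takara lay below every control and 2 of the 9 that rose lay above. S100A8 held 15189 CPM in the Takara and 14490 CPM in the Lexogen library, beside control ranges of 557 to 2744 CPM and 293 to 2191 CPM.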
